A study of Mus musculus with 4 samples.

Results

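The mitochondrially encoded genes are the 37 genes of the mouse mitochondrial genome, taken here as every gene whose GENCODE M21 symbol starts with mt-. All 37 were found among the 37311 gene identifiers of each count file. They are 13 mRNAs, 2 ribosomal RNAs and 22 tRNAs, with 28 genes annotated on the plus strand and 9 on the minus strand. The minus strand holds mt-Nd6 and 8 tRNAs.

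Mitochondrial DNA is transcribed from both strands as long precursors, which are cut mostly at the tRNAs to release the mRNAs and rRNAs. The mRNAs encode core subunits of respiratory complexes I, III, IV and V and are read by a separate mitochondrial ribosome inside the organelle, whose RNA is encoded by mt-Rnr1 and mt-Rnr2. Cycloheximide stops cytosolic ribosomes and does not act on mitochondrial ones. The nuclear genome carries copies of stretches of mitochondrial DNA, so a short read can match both places.

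The 4 libraries came from J1 mouse embryonic stem cells (strain 129S4/SvJae) grown without feeders in serum with LIF, and all carried a knockdown of eIF4A3, a helicase that forms part of the exon junction complex on spliced RNA. Per the labels, the short hairpins were sheIF4a3-2 and sheIF4a3-3, selection was 3 days of puromycin at 1 μg/mL, and harvest was on day 4.5, after a cycloheximide pulse (0.1 mg/mL, 1 min). Fragments protected by ribosomes (RPF), the pieces left after nuclease digestion, and total RNA were each sequenced from 2 biological replicates after ribosomal RNA depletion with Ribo-Zero Gold. No unperturbed cells were analysed here, so the contrast described is RPF against total RNA within knockdown cells.

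Gene counts per library lay between 7615277 and 9434987. Reads with more than 1 alignment, which the files tally outside the genes, were 20.6% to 21.1% of the tallied reads in the RPF libraries and 16.6% in each total RNA library. The targeted gene Eif4a3 had 1640 and 1325 RPF counts and 1229 and 975 total RNA counts (replicate 1 first, as throughout), with no unperturbed level beside them. All 9 pluripotency markers were detected in every library, with a summed level of 3930 to 6270 CPM (counts scaled by library size, with TMM factors). The 8 fibroblast markers summed to 5.15 to 12.9 CPM, and 3 to 5 of them were at 0 in each library, Dcn and Fap in all.

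Of the 37 genes, 16 had almost no counts, defined as fewer than 10 in every library, and the other 21 all passed the count filter for testing. The 11 genes from mt-Ts1 to mt-Nd4l, which follow one another without interruption, were all among the 16. Together these 6 mRNAs and 5 tRNAs had 0 counts in each RPF library and 11 and 10 in the total RNA libraries. They include mt-Co2 and mt-Co3, core subunits of cytochrome c oxidase, mt-Atp6 and mt-Atp8 of the ATP synthase, and mt-Nd3 and mt-Nd4l of complex I. The highest single value in the stretch was 9 counts, for mt-Co3 in total RNA replicate 2, while its neighbour upstream, mt-Co1, had 5735 counts in that library.

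Of the mRNAs in this stretch, all but mt-Atp8 have an annotated near-identical copy in the nuclear genome. All 28-base stretches of mt-Co2 also occur in a nuclear GENCODE transcript, as do 99.9% of those of mt-Co3, 99.5% of mt-Atp6, 98.9% of mt-Nd4l and 98.1% of mt-Nd3. The flanking genes mt-Co1 and mt-Nd4 share 66.7% and 62.8%, and both were still counted. To show how alike they are, bases 151 to 240 of mt-Co2, counted from its first base, are followed by the same bases of its copies Gm28661 on chromosome 1 and Gm13341 on chromosome 2, with a base that differs from mt-Co2 in capitals.
mt-Co2: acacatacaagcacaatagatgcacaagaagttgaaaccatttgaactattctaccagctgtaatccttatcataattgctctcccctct
Gm28661: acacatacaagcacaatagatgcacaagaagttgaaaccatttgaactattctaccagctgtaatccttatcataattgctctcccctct
Gm13341: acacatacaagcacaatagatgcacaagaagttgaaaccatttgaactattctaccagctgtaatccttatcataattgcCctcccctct
The chromosome 1 copy matched mt-Co2 at all 681 bases compared, and the chromosome 2 copy differed within this window at 1 base (T231C). Likewise Gm10222 matched mt-Nd4l at all 294 bases compared. Gm10222 was listed in the files and had 0 counts in all 4 libraries, and Gm13341 had 0 in both RPF libraries and 3 and 1 in total RNA.

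In the GENCODE M21 annotation (GRCm38), 7 such pseudogenes lie in a row on chromosome 1 in the order of the mitochondrial genes they copy, from Gm29216 (mt-Co1) to Gm28439 (mt-Nd4). Neighbouring 5′ ends were 290, 852, 680 and 914 bases apart for the copies of mt-Nd4l and mt-Nd4, mt-Co3 and mt-Nd3, mt-Atp6 and mt-Co3, and mt-Co2 and mt-Atp6, exactly as for the mitochondrial genes. Between the copies of mt-Nd3 and mt-Nd4l the distance was 419 against 418 bases. The 3′ end of the mt-Co1 copy lay 141 bases from the 5′ end of the mt-Co2 copy, again the distance in the mitochondrial genome. In the mitochondrial genome these intervals hold mt-Ts1, mt-Td, mt-Tk, mt-Atp8, mt-Tg and mt-Tr, the last in the interval that differs by 1 base. Their sequence was not compared, since only transcripts were used, and mt-Atp8 shared 9.04% of its stretches and the 5 tRNAs none by that measure. The counts were made on the mm9 build, and how much of the low counts comes from reads with several alignments was not tested.

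Another 5 genes with almost no counts, all tRNAs, lie outside that stretch. They are mt-Tn and mt-Ty with 0 counts in every library, mt-Te with 0 in both RPF libraries and 1 in each total RNA library, mt-Th with a single count in total RNA replicate 2, and mt-Tw with 0, 1, 5 and 0 counts in the 4 libraries. Where a gene had 0 counts in a library, up to 3 remain possible, an upper limit of 0.318 and 0.394 CPM (unscaled) in RPF replicates 1 and 2 and 0.334 and 0.365 CPM in total RNA, for counting error only. In all, 9 genes had no count in any library. Of the 16, 4 tRNAs are on the minus strand, among 9 genes there, and 12 genes are on the plus strand, among 28.

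**Figure D1:**
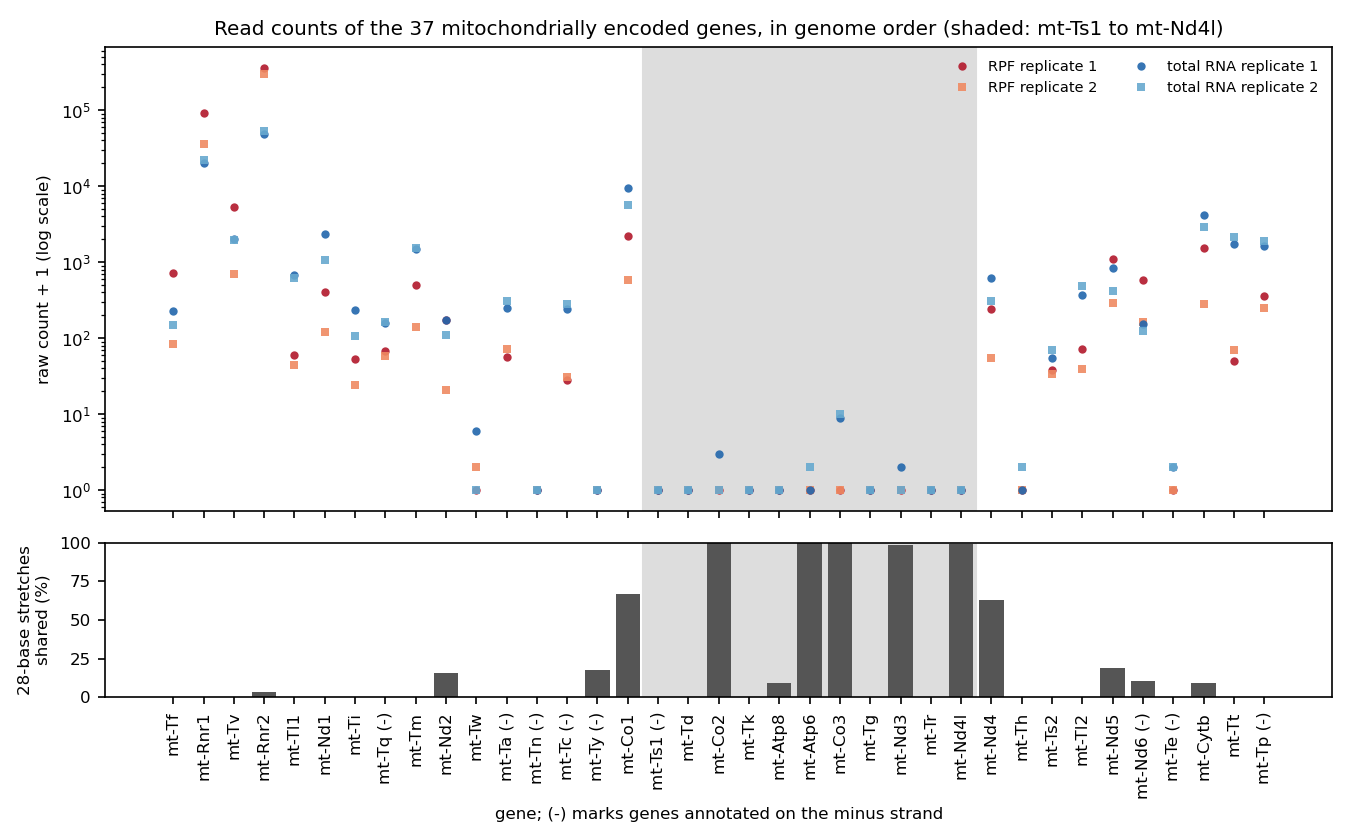
Raw counts plus 1 of each mitochondrially encoded gene in the 4 libraries (upper panel, log scale, genes in genome order) and the share of each gene's 28-base stretches that also occur in a nuclear transcript (lower panel, percent). Genes without counts sit at 1, and the shaded run from mt-Ts1 to mt-Nd4l holds no value above 9 counts, between mt-Co1 and mt-Nd4.

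By class, mitochondrial rRNA took a larger share of the RPF libraries and mitochondrial mRNA a smaller one. The 2 rRNAs made up 4.77% and 4.44% of gene counts in RPF replicates 1 and 2 and 0.766% and 0.921% in total RNA replicates 1 and 2. The 13 mRNAs made up 0.0662% and 0.0199% of RPF counts against 0.197% and 0.130% of total RNA counts. The 22 tRNAs made up 0.0776% and 0.0200% against 0.101% and 0.118%. As unscaled shares the fractions did not overlap in any class. However, the RPF replicates for tRNA and the total RNA replicates for mRNA lay further apart than the fractions did at their nearest. The TMM factors used for the ratios below (0.8215 and 0.9027 in RPF, 1.141 and 1.182 in total RNA) were not applied here. With them the tRNA class overlaps, since RPF replicate 1 then lies between the total RNA libraries. The mean share of rRNA was 4.60 ± 0.238% in RPF against 0.844 ± 0.11% in total RNA (SD, n = 2), that of mRNA 0.0430 ± 0.0327% against 0.164 ± 0.0477%, and that of tRNA 0.0488 ± 0.0407% against 0.11 ± 0.0119%. With 2 libraries against 2, an exact two-sided permutation test cannot go below p = 0.333, so class shares carry no test. Among mitochondrial counts alone, rRNA was 97.1% and 99.1% of the RPF counts and 71.9% and 78.8% of the total RNA counts. The RPF name covers every fragment of the selected size: rRNA and tRNA are not translated, so their ratio is not an occupancy by ribosomes.

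**Figure D2:**
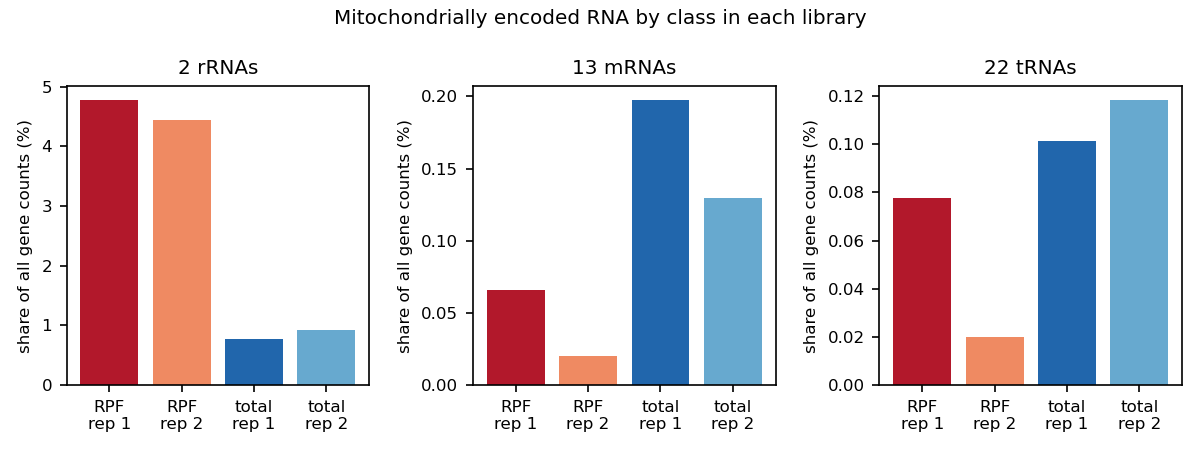
Share of all gene counts (percent) taken by the 2 rRNAs, 13 mRNAs and 22 tRNAs of the mitochondrial genome in each of the 4 libraries, each panel with its own axis from 0. The rRNA bars are higher in both RPF libraries (4.77% and 4.44%), and the mRNA and tRNA bars of RPF replicate 2 are the lowest of their panels.

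The fractions were compared gene by gene with edgeR's quasi-likelihood test over 13809 genes, with Benjamini-Hochberg adjustment over all of them and a threshold of 0.05. Ratios below are log2 RPF over total RNA, ± standard error (SE). Of the 21 tested genes, 3 were higher in RPF, 11 were lower and 7 did not pass, beside 20.5% of all tested genes higher and 21.2% lower. Calls changed in fits without 1 library, which take the replicate spread from the fraction left with 2 libraries alone. The median ratio of the 21 genes was -1.55, against -0.02 over all tested genes. The 3 higher genes were mt-Rnr1, mt-Rnr2 and mt-Nd6. The lower genes were 2 of 7 tested mRNAs and 9 of 12 tested tRNAs. On the minus strand 1 of 5 tested genes was higher and 4 were lower, and on the plus strand 2 of 16 were higher, 7 were lower and 7 did not pass. The labels call the replicates biological, and n is 2 per fraction throughout. How many of all tested genes have RPF and total RNA levels that do not overlap was not counted. Agreement of 4 of 4 pairings of libraries, given below, means the same.

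**Figure D3:**
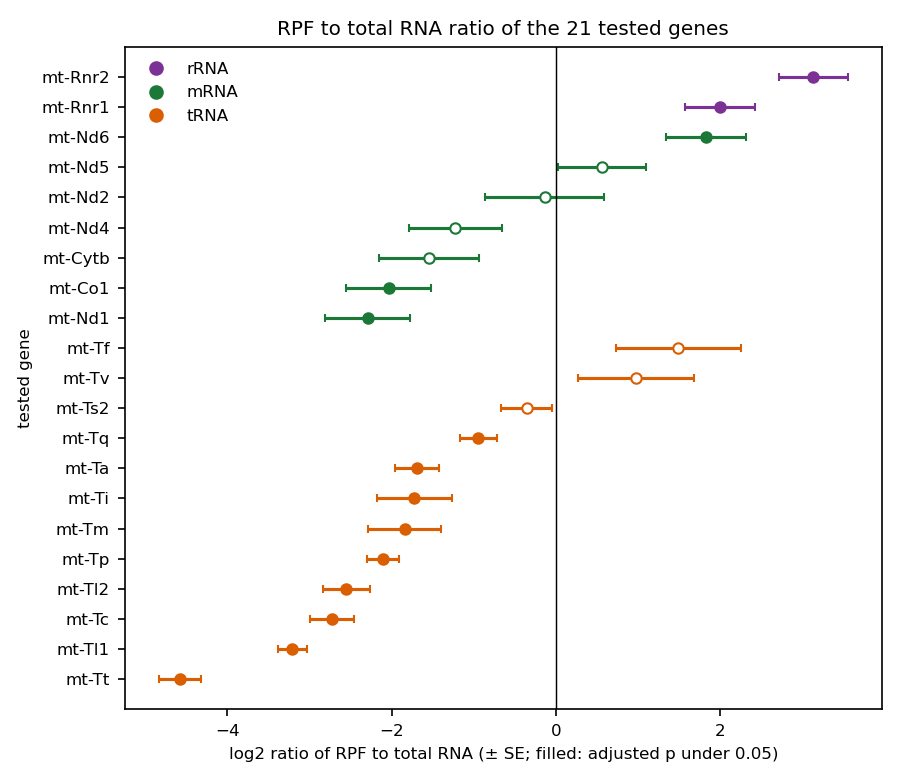
Log2 of RPF over total RNA for the 21 tested genes, grouped as rRNAs, mRNAs and tRNAs, with bars for the SE and filled points for an adjusted p under 0.05 in edgeR. Both rRNAs lie to the right of 0, the mRNAs run from -2.29 for mt-Nd1 to 1.83 for mt-Nd6, and mt-Tt lies lowest at -4.58.

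The rRNA of the large mitochondrial subunit, mt-Rnr2, had 358579 and 302381 counts in RPF and 48744 and 53469 in total RNA. Its rank among all genes was 2 in both RPF libraries and 5 in both total RNA libraries, and it held 3.80% (95% exact binomial interval 3.79% to 3.81%) and 3.97% (3.96% to 3.98%) of RPF gene counts. Its ratio was 3.14 ± 0.42 (edgeR adjusted p = 0.00188), and higher in 4 of 4 pairings of an RPF with a total RNA library. The rRNA of the small subunit, mt-Rnr1, had 91690 and 35413 counts in RPF and 19968 and 22218 in total RNA. It was also higher in all 4 pairings, with a ratio of 2.00 ± 0.42 (edgeR adjusted p = 0.00941), which fell to 1.29 without RPF replicate 1. Both levels are those left after rRNA depletion. Within a library, mt-Rnr2 exceeded mt-Rnr1 per base of length 2.36-fold and 5.15-fold in RPF replicates 1 and 2, against 1.47-fold and 1.45-fold in the total RNA libraries. The balance of the rRNAs was thus close between total RNA libraries and differed between RPF libraries, where mt-Rnr1 differed 2.30-fold and mt-Rnr2 1.05-fold after scaling.

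Among mRNAs, the complex I subunit mt-Nd1 and the catalytic subunit of complex IV, mt-Co1, were lower in RPF. For mt-Nd1, replicates 1 and 2 gave 401 and 118 counts in RPF and 2329 and 1077 in total RNA. Its ratio was -2.29 ± 0.52 (edgeR adjusted p = 0.0122), lower in 4 of 4 pairings, with -3.29 without RPF replicate 1 and -1.70 without RPF replicate 2. mt-Co1, with the most counts of all mitochondrial mRNAs in every library, had 2195 and 586 counts in RPF and 9417 and 5735 in total RNA. Its ratio was -2.03 ± 0.52 (edgeR adjusted p = 0.0186), also lower in 4 of 4 pairings, with -3.14 and -1.40 without RPF replicates 1 and 2. For both genes the highest RPF level stayed below the lowest total RNA level.

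The minus-strand mRNA mt-Nd6, a membrane subunit of complex I, went the other way. It had 581 and 162 counts in RPF against 155 and 123 in total RNA. The ratio was 1.83 ± 0.48 (edgeR adjusted p = 0.0219), higher in 4 of 4 pairings. It fell to 0.77 without RPF replicate 1. The gene was not called by limma-voom (adjusted p = 0.0509) or glmTreat with a minimum fold of 1.5 (adjusted p = 0.0576). Alternatives with all 4 libraries, fitted on fraction alone, gave adjusted p-values between 6.01e-05 (DESeq2) and 0.0576 (glmTreat). The plus-strand precursor runs through the same positions, and the strand setting of the counting is not given in the sources used here, so reads of mt-Nd6 and of RNA from the opposite strand cannot be told apart. It shares 14 annotated bases with the 3′ end of mt-Nd5 on that strand.

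The other 4 tested mRNAs did not pass. mt-Cytb, the complex III subunit that binds quinone, had 1544 and 284 counts in RPF and 4155 and 2892 in total RNA (-1.55 ± 0.61, edgeR adjusted p = 0.0785). mt-Nd4 of complex I had 241 and 54 against 615 and 307 counts (-1.22 ± 0.56, edgeR adjusted p = 0.122). For these genes the fractions did not overlap, although RPF replicate 1 and total RNA replicate 2 of mt-Nd4 differed by only 0.02 on the log2 scale. mt-Nd5 of complex I had 1107 and 290 against 843 and 418 counts (0.56 ± 0.53, edgeR adjusted p = 0.425), and mt-Nd2 of complex I had 174 and 20 against 172 and 110 (-0.14 ± 0.72, edgeR adjusted p = 0.895). The fractions overlapped for both, with RPF replicate 1 above and RPF replicate 2 below the total RNA libraries. For mt-Nd5, however, RPF replicate 2 was nearly level with total RNA replicate 2 (42.19 against 43.05 CPM). Without RPF replicate 1 the ratios of mt-Nd5 and mt-Nd2 were -0.56 and -2.26, and without RPF replicate 2 they were 1.2 and 0.69. The ratio of mt-Cytb ran from -3.08 without RPF replicate 1 to -0.81 without RPF replicate 2, and that of mt-Nd4 from -2.53 to -0.55. A missed threshold does not show that RPF and total RNA were alike.

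In the make-up of the mitochondrial mRNA pool, mt-Nd5 and mt-Nd6 held larger shares in RPF, and mt-Co1 and mt-Nd1 smaller ones. Of the summed mRNA counts, mt-Nd6 made up 9.31% and 10.7% in RPF replicates 1 and 2 against 0.876% and 1.15% in total RNA replicates 1 and 2. mt-Nd5 made up 17.7% and 19.2% against 4.76% and 3.92%. mt-Co1 made up 35.2% and 38.7% against 53.2% and 53.7%, and mt-Nd1 6.42% and 7.79% against 13.2% and 10.1%. The total RNA replicates of mt-Nd1 lay further apart than its fractions did at their nearest. As a mean over the 4 pairings, the RPF share of mt-Nd6 was 9.93-fold and that of mt-Nd5 4.27-fold the total RNA share, while the total RNA share was 1.45-fold the RPF share for mt-Co1 and 1.63-fold for mt-Nd1. mt-Cytb held 24.7% and 18.8% against 23.5% and 27.1%, which overlapped. mt-Nd2 held 2.79% and 1.32% against 0.972% and 1.03%, with RPF replicates further apart than RPF replicate 2 was from total RNA. mt-Nd4 held 3.86% and 3.57% against 3.48% and 2.88%, with total RNA replicates further apart than total RNA replicate 1 was from RPF. On this scale mt-Nd2 and mt-Nd4 lay above 0 in all 4 pairings (means of 0.94 and 0.23 on the log2 scale), whereas the TMM-scaled ratios of both were below 0. Shares of one sum are tied to each other, the scale was chosen after the data were seen, and it carries no test.

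**Figure D4:**
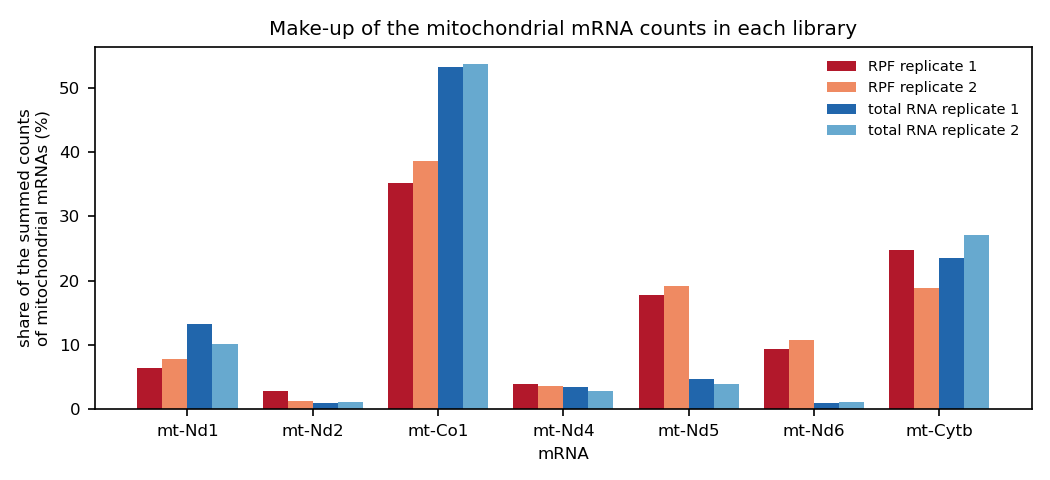
Share of the summed counts of all mitochondrial mRNAs (percent) for the 7 mRNAs with counts, with 1 bar per library. mt-Nd5 and mt-Nd6 are higher in both RPF libraries, mt-Co1 and mt-Nd1 in both total RNA libraries.

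Per kilobase of gene length, the level in total RNA was highest for mt-Co1 at 489 ± 151 CPM, followed by mt-Cytb at 308 ± 66.8, mt-Nd1 at 177 ± 86.2, mt-Nd5 at 34.4 ± 15.2, mt-Nd4 at 33.3 ± 14.6, mt-Nd6 at 26.8 ± 3.37 and mt-Nd2 at 13.6 ± 3.73 (SD, n = 2). mt-Nd5, mt-Nd4 and mt-Nd6 did not differ beyond their spread. mt-Co1 exceeded mt-Cytb per base in each total RNA library, 1.68-fold and 1.47-fold. In RPF the order was mt-Co1 (119 ± 90.6 CPM per kilobase), mt-Cytb (105 ± 97.6), mt-Nd6 (94.9 ± 70.0), mt-Nd5 (50.7 ± 39.0), mt-Nd1 (36.0 ± 25.5), mt-Nd4 (14.1 ± 11.9) and mt-Nd2 (12.2 ± 13.3), and the SDs of all neighbours overlapped. These SDs hold the difference between RPF replicates that all 7 mRNAs share. Within each RPF library mt-Nd6 exceeded mt-Nd5 per base 1.84-fold and 1.96-fold, against 0.646-fold and 1.03-fold in total RNA. mt-Nd6 stood at 0.788-fold and 0.823-fold of mt-Co1 per base, against 0.049-fold and 0.0638-fold in total RNA. If only the 28-base stretches not found in a nuclear transcript are taken as length, mt-Co1 rises to 1496 ± 461 CPM per kilobase in total RNA and 365 ± 277 in RPF, and mt-Nd4 to 91.3 ± 40.1 and 38.8 ± 32.7. With stretches of 50 bases, the read length, mt-Co1 shared 51.1% and mt-Nd4 62.2%, so mt-Co1 would rise by less. Whether shared reads were lost from the counts was not tested.

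The tested tRNAs were mostly lower in RPF. The 5 shown here are those with the most RPF counts and, for mt-Tt, the lowest ratio. They were printed from the GENCODE transcripts with the anticodon in capitals, as DNA letters, 5′ to 3′ and without the CCA end that is added after transcription.
mt-Tt: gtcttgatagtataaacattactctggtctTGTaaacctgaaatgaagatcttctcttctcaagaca
mt-Tp: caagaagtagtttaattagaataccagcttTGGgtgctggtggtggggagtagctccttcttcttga
mt-Tm: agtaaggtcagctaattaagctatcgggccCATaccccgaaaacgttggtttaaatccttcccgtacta
mt-Tv: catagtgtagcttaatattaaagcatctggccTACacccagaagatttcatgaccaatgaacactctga
mt-Tf: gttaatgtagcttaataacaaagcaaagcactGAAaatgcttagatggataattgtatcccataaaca
Each is between 67 and 69 bases long, against a read length of 50 bp. No 28-base stretch of these 5 occurs in a nuclear GENCODE transcript.

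The threonine tRNA mt-Tt had 49 and 69 counts in RPF and 1757 and 2116 in total RNA, a ratio of -4.58 ± 0.25 (edgeR adjusted p = 0.000165). Its neighbour on the opposite strand, the proline tRNA mt-Tp, had 361 and 247 against 1612 and 1928 counts (-2.11 ± 0.19, edgeR adjusted p = 0.000742). The pair had near-equal counts in total RNA, where mt-Tp over mt-Tt was 0.917 and 0.911, while in RPF mt-Tp exceeded mt-Tt 7.37-fold and 3.58-fold. Both leucine tRNAs were lower. mt-Tl1 had 59 and 44 against 675 and 623 counts (-3.21 ± 0.18, edgeR adjusted p = 0.000176), and mt-Tl2 had 70 and 38 against 372 and 483 (-2.55 ± 0.29, edgeR adjusted p = 0.00114). The cysteine tRNA mt-Tc (27 and 30 against 239 and 278 counts) and the alanine tRNA mt-Ta (55 and 71 against 247 and 311), both on the minus strand, had ratios of -2.73 ± 0.26 and -1.69 ± 0.27 (edgeR adjusted p = 0.000779 and 0.00343). In these 6 tRNAs all RPF levels lay below all total RNA levels. The same held for mt-Tm, mt-Ti, mt-Tq and mt-Ts2 below, and mt-Ts2 did not pass. This separation was not counted over all tested genes.

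The methionine tRNA mt-Tm, used for both start and internal codons in mitochondria, had 497 and 138 counts in RPF against 1493 and 1524 in total RNA (-1.84 ± 0.45, edgeR adjusted p = 0.0157). Its ratio was -2.90 without RPF replicate 1 and -1.22 without RPF replicate 2. The isoleucine tRNA mt-Ti had 53 and 23 against 234 and 107 counts (-1.72 ± 0.46, edgeR adjusted p = 0.0227), and the glutamine tRNA mt-Tq 66 and 57 against 159 and 163 (-0.94 ± 0.23, edgeR adjusted p = 0.0163). mt-Ti shares 2 annotated bases with mt-Nd1 and 3 with mt-Tq. The call of mt-Ti was lost without total RNA replicate 1 (adjusted p = 0.0934) and with glmTreat (0.0623). That of mt-Tq was lost without total RNA replicate 1 (0.0516) or 2 (0.0961) and with glmTreat (0.109). Over the alternatives with all 4 libraries, fitted on fraction alone, the adjusted p of mt-Ti ran from 0.00176 (DESeq2) to 0.0623 (glmTreat). That of mt-Tq ran from 0.00448 (edgeR with library size only) to 0.109 (glmTreat).

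The tRNAs that flank mt-Rnr1 did not pass, and their RPF replicates lay on either side of total RNA. mt-Tv, the valine tRNA, which in humans is built into the large mitochondrial ribosomal subunit, had 5328 and 688 counts in RPF and 2024 and 1968 in total RNA (0.98 ± 0.71, edgeR adjusted p = 0.304). mt-Tf, the phenylalanine tRNA, had 716 and 82 against 224 and 149 counts (1.49 ± 0.76, edgeR adjusted p = 0.156). Their ratios were -0.99 and -0.63 without RPF replicate 1 and 1.79 and 2.32 without RPF replicate 2. The serine tRNA mt-Ts2 had 37 and 33 against 54 and 68 counts (-0.36 ± 0.32, edgeR adjusted p = 0.396). mt-Tv alone made up 72.8% and 45.2% of all RPF tRNA counts and 22.3% and 20.2% in total RNA. By strand, the 8 minus-strand tRNAs summed to 509 and 405 counts in RPF and 2258 and 2681 in total RNA, and the 14 plus-strand tRNAs to 6809 and 1116 against 6838 and 7039. The 4 tested minus-strand tRNAs were all lower, and of the 8 on the plus strand 5 were lower and 3 did not pass. A difference between the strands was not tested.

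The replicates differed more for mitochondrial mRNAs than for most genes, and most in RPF. All 7 tested mRNAs were at least 3-fold higher in RPF replicate 1 than in RPF replicate 2 after TMM scaling, while 4.47% of 13612 tested genes with counts in both RPF libraries were at least 2-fold higher there and 1.59% at least 3-fold. The median log2 difference of the 7 was 1.76, from 1.59 for mt-Nd1 to 2.95 for mt-Nd2, against -0.003 over all genes. Summed mRNA counts were 6243 and 1514, or 3.66-fold higher in replicate 1 (log2 1.87, 95% counting interval 1.79 to 1.95). In total RNA the 7 mRNAs were again higher in replicate 1, beside 48.7% of all tested genes, but by less. The sum was 17697 and 10672 counts, or 1.57-fold (log2 0.65, 0.62 to 0.69), and only mt-Nd1 reached 2-fold, beside 1.87% of all genes. In bulk libraries, fewer cells with a feature and less RNA per cell cannot be told apart.

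The rRNAs shared this difference only in part. mt-Rnr1 was 2.30-fold higher in RPF replicate 1, where 4.47% of tested genes were at least 2-fold higher, and mt-Rnr2 only 1.05-fold. In total RNA mt-Rnr2 and mt-Rnr1 were both lower in replicate 1, at 0.865-fold and 0.853-fold of replicate 2. The tRNAs were uneven. mt-Tf (7.74-fold), mt-Tv (6.87-fold), mt-Tm (3.19-fold) and mt-Ti (2.04-fold) were at least 2-fold higher in RPF replicate 1, and mt-Tl2 (1.63-fold) and mt-Tp (1.30-fold) were higher by less, whereas mt-Tq, mt-Ts2, mt-Tl1 and mt-Tc differed by less than their counting intervals and mt-Ta and mt-Tt were lower, at 0.687-fold and 0.63-fold. The 19 tRNAs other than mt-Tv, mt-Tf and mt-Tm, a set chosen after the values were seen, summed to 777 and 613 counts, or 1.12-fold. In total RNA 9 of 12 tested tRNAs were lower in replicate 1, where 48.7% of all tested genes were higher. The exceptions were mt-Ti at 2.08-fold, mt-Tf at 1.43-fold and mt-Tl1 at 1.03-fold. The total RNA replicates of mt-Tv, mt-Tq, mt-Ts2 and mt-Tl1 differed by less than their counting intervals. These intervals hold counting error alone, because PCR copies of 1 molecule cannot be recognised in such reads. Which hairpin each replicate received is not given in the sources used here, so replicate and hairpin cannot be told apart.

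**Figure D5:**
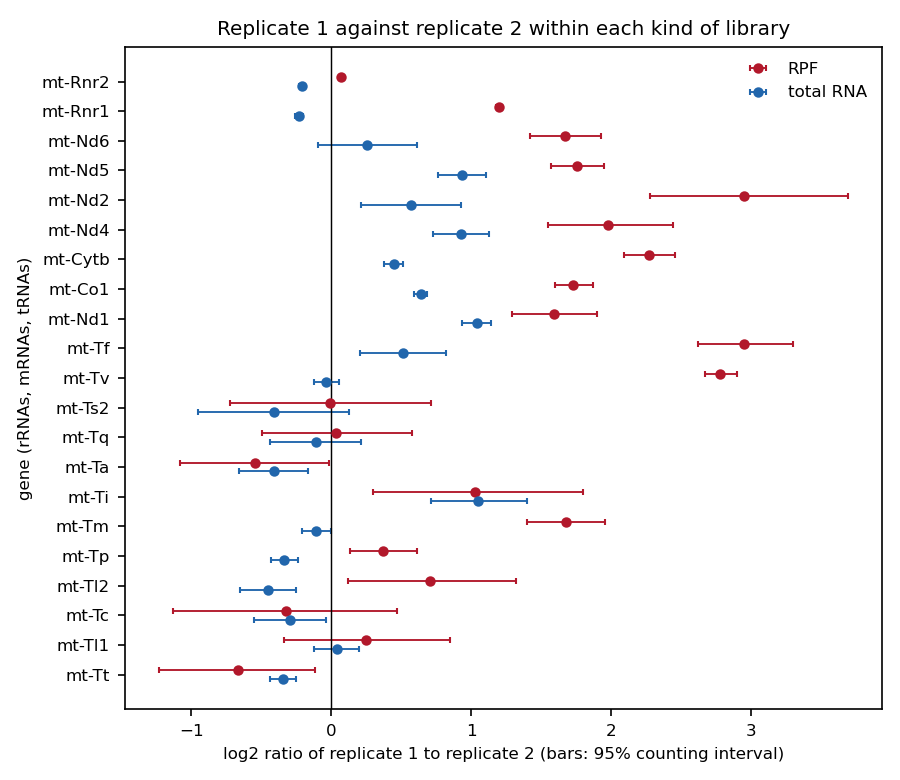
Log2 ratio of replicate 1 to replicate 2 for each tested gene within the RPF and the total RNA libraries (TMM-scaled), with 95% counting intervals as bars. All mRNA points of RPF lie at 1.59 or above, those of total RNA between 0.26 and 1.04, and mt-Rnr2 lies near 0 in both.

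The nuclear-encoded partners of these genes are imported proteins. Of nuclear-encoded subunits, 33 of 36 tested for complex I, 8 of 9 for complex III, 10 of 11 for complex IV and 17 of 17 for complex V were higher in RPF, and none was lower, beside 20.5% and 21.2% of all tested genes. Their median ratios were 1.10, 0.98, 1.04 and 1.15. The highest per complex were Cox6a1 of complex IV (1.94 ± 0.15, edgeR adjusted p = 0.000489), Ndufc2 of complex I (1.90 ± 0.21), Uqcrq of complex III (1.71 ± 0.16) and the ATP synthase inhibitor Atpif1 (1.83 ± 0.18). The lowest were Cox7c of complex IV (-0.28 ± 0.24, edgeR adjusted p = 0.384), Ndufa2 of complex I (0.20 ± 0.14), Uqcr11 of complex III (0.50 ± 0.17) and Atp5f1 of complex V (0.71 ± 0.15). Of these, only Atp5f1 passed. Of the mitochondrially encoded subunits, 1 of 5 tested for complex I was higher and 1 lower, the only complex III subunit did not pass, the only tested complex IV subunit was lower, and no complex V subunit had enough counts. Among 50 tested nuclear factors of mitochondrial transcription, RNA processing and translation, 11 were higher, 2 were lower and 37 did not pass, with a median of 0.28. The share higher was thus near the 20.5% of all tested genes. The share lower was smaller than the 21.2% of all, whose median was -0.02. Hsd17b10, a subunit of the RNase that cuts tRNA 5′ ends, was highest (1.39 ± 0.23, edgeR adjusted p = 0.00382), and the GTPase Guf1 was lowest at a mean of at least 10 CPM (-1.10 ± 0.22, edgeR adjusted p = 0.00768).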

How the data were processed

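The authors deposited raw read counts per gene for 4 libraries (RPF and total RNA, 2 replicates each). The submitters' processing notes name TopHat2 2.1.1, HTSeq 0.11.2, Bowtie 1.2.3, the mm9 build and edgeR 3.26.8. Per the labels' protocols, reads were single-end and 50 bp long, and each RPF library was sequenced 4 times. No source used here gives the annotation, the strand setting or how runs were joined. Tallies that name no gene were left out of library sizes.

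Identifiers were matched without version to GENCODE M21 (32621 named, 87.4%). Genes passed filterByExpr (minimum count 10, minimum total 15). TMM scaling and a quasi-likelihood fit of fraction alone were run in edgeR 4.0.16 (R 4.3.3), checked on simulated counts. The simulation gave all genes the same relative spread, so it does not cover replicate differences as large as those of the mitochondrial mRNAs. SE is the ratio's size over the square root of F, and tests are two-sided. Alternatives used DESeq2 1.42.0 and limma 3.58.1 among others. Sequence sharing was searched on both strands of GENCODE transcripts, with look-alikes sharing at least 50% of 28-base stretches. All 37 genes are named, and list genes are the highest and lowest ratio at a mean of at least 10 CPM. Members and lists were chosen with earlier results of these data known.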

Additional observations from a re-analysis of the deposited data

How the results depend on the processing

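The 3 higher and 11 lower calls among the 21 tested genes became 6 and 13 with a replicate block in edgeR, which added mt-Tf (1.15), mt-Tv (0.46) and mt-Nd5 (0.44) as higher and mt-Cytb (-1.84) and mt-Nd4 (-1.34) as lower. Leaving out 1 library gave 3 to 7 higher (7 without RPF replicate 2) and 10 to 16 lower; the other alternatives gave 2 to 3 higher and 9 to 13 lower. Same-numbered libraries deviated together (correlation 0.412 over 13809 genes, 0.625 over the 21), but the labels do not pair them. Calls over all genes also moved with the block, to 4257 higher and 4365 lower from 2835 and 2930, and library size only gave 1226 and 4957 with a median of -0.454. Ratios that changed direction without 1 library were those of mt-Tf (-0.63 to 2.32), mt-Tv (-0.99 to 1.79) and mt-Nd5 (-0.56 to 1.2), negative without RPF replicate 1, and mt-Nd2 (-2.26 to 0.69), positive without RPF replicate 2 or total RNA replicate 1 (0.17). The cause was not tested.

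On the log2 scale, RPF over total RNA shares were -2.14 for mRNA, 2.45 for rRNA and -1.48 for tRNA, and -4.21, 0.38 and -3.55 as shares of mitochondrial counts. Without 1 library they ran from -3.01 to -1.27, 2.32 to 2.59 and -2.46 to -0.50. With library size only, the log2 replicate 1 to 2 ratio was 1.74, 0.11 and 1.96 for mRNA, rRNA and tRNA sums in RPF and 0.60, -0.27 and -0.22 in total RNA, in place of 1.87, 0.24, 2.09, 0.65, -0.22 and -0.17. The 16 genes with under 10 counts have too few for a ratio.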
